A study of Mus musculus with 19 samples.

Results

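The genes that encode collagen chains were followed across normal mouse colon and colon tumours of 2 genotypes. The members were all rows of the deposited table whose symbol is Col, a number, the letter a and a second number, which gave 44 of 32694 gene symbols. Of these, 39 reached a normalized count of at least 10 in at least 5 of the 19 libraries and were tested, beside 18445 genes tested in all. The other 5, Col2a1, Col4a4, Col6a6, Col19a1 and Col26a1, stayed below that filter. Col9a1 passed through Apc tumours alone, with 5 Apc, 0 wild-type and 0 Apc/Tgif libraries at 10 or more, Col10a1 through both tumour groups with 0 wild-type libraries, and Col11a1 mainly through wild-type colon. A difference in these 3 genes was partly set by the filter, so their values are given as a description with no test, and counts of called genes are also given without them.

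RNA-seq of polyA RNA was made from whole tissue of 12 week old mice, with 1 library per mouse. Wild-type colon came from 3 female and 2 male mice. Apc tumours, from 3 female and 4 male mice, carried a Villin-Cre deletion of 1 Apc allele, and the labels call them Apc heterozygous. Apc/Tgif tumours, again from 3 females and 4 males, carried the same Apc deletion together with deletion of both alleles of Tgif1 and of Tgif2, also by Villin-Cre. Villin-Cre acts in the gut epithelium, so the stromal cells that make most collagen are not the cells targeted by the deletions. Each tumour library came from a single tumour, and no colon without a tumour from Apc or Apc/Tgif mice was analysed here.

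Tgif1 lay at 829 to 1181 normalized counts in wild-type colon, 2785 to 4964 in Apc tumours and 251 to 654 in the tumours labelled Apc/Tgif. Tgif2 lay at 97.0 to 234, 476 to 764 and 2141 to 3107, so its gene total was higher in the tumours labelled as lacking it; the sources used here do not name the deleted exons. Apc/Tgif tumour means below a library with that label. Libraries held about 28400000 to 49000000 counts each, as read from the step between low values.

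Collagens are secreted proteins in which 3 chains wind into a triple helix. Fibril-forming types I, III and V give connective tissue its tensile strength, type IV forms the network of basement membranes under epithelium and around vessels and muscle, type VI forms beaded filaments near cell surfaces, and the remaining types decorate fibrils, anchor epithelium or span cell membranes. In the gut they are made mostly by fibroblasts, smooth muscle cells, pericytes and endothelium. TGIF1 and TGIF2 are transcriptional repressors that can act on SMAD proteins of the TGF-beta pathway, a pathway known to raise collagen transcription in fibroblasts.

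By median, collagen transcripts made up the largest part of the RNA in Apc tumours, less in Apc/Tgif tumours and least in wild-type colon. Their summed share of all normalized counts was 0.268%, 0.194%, 0.299%, 0.204% and 0.230% in the 5 wild-type libraries. In Apc tumours the lowest, median and highest shares were 0.376%, 0.489% and 0.797%, and in Apc/Tgif tumours 0.248%, 0.370% and 0.392%. The Apc tumours lay above every wild-type library, whereas Apc/Tgif tumours overlapped both other groups. These shares follow the few most abundant chains and are given without a test.

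Gene by gene, the Apc tumours had more collagen genes raised than lowered against wild-type colon, and the Apc/Tgif tumours had similar numbers of each. In Apc tumours 19 of the 39 tested genes rose, 9 fell and 11 did not pass the test, which was limma on log2(normalized count + 1) with Benjamini-Hochberg adjustment over all genes tested and a threshold of 0.05. Of all 18445 genes 23.9% rose and 25.2% fell in this comparison, 49.1% together. In Apc/Tgif tumours 13 collagen genes rose, 11 fell and 15 did not pass, beside 24.8% and 25.5% of all genes, 50.3% together. Without Col9a1, Col10a1 and Col11a1, 17 rose and 8 fell in Apc tumours and 12 rose and 10 fell in Apc/Tgif tumours, of 36 genes. The median log2 change over the 39 genes was 0.51 in Apc tumours and -0.03 in Apc/Tgif tumours, beside -0.01 and 0.00 over all genes tested.

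Groups without any overlap of library values were also counted. Against wild-type colon, 14 collagen genes had every Apc tumour above and 6 had every Apc tumour below, beside 14.0% and 15.4% of all genes (29.4% together). For Apc/Tgif tumours these counts were 10 above and 9 below, beside 14.1% and 16.5% (30.6% together). The 10 include Col10a1 and the 9 include Col11a1, both partly set by the filter. The counts for Apc tumours hold none of the filter-set genes. The 2 tumour groups share the same 5 wild-type libraries, so their changes against wild type are given side by side and are not independent of each other. Against wild type 13 collagen genes rose in both tumour groups, 9 fell in both, 6 were called higher only in Apc tumours (Col1a2, Col5a1, Col5a3, Col9a1, Col23a1 and Col24a1), 2 lower only in Apc/Tgif tumours (Col4a3 and Col27a1), and 9 were called in neither. The 13 include Col10a1, the 9 that fell Col11a1 and the 6 Col9a1, whose calls were partly set by the filter. The share of all genes with each of these patterns is not given here, so the counts are a description.

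**Figure D1:**
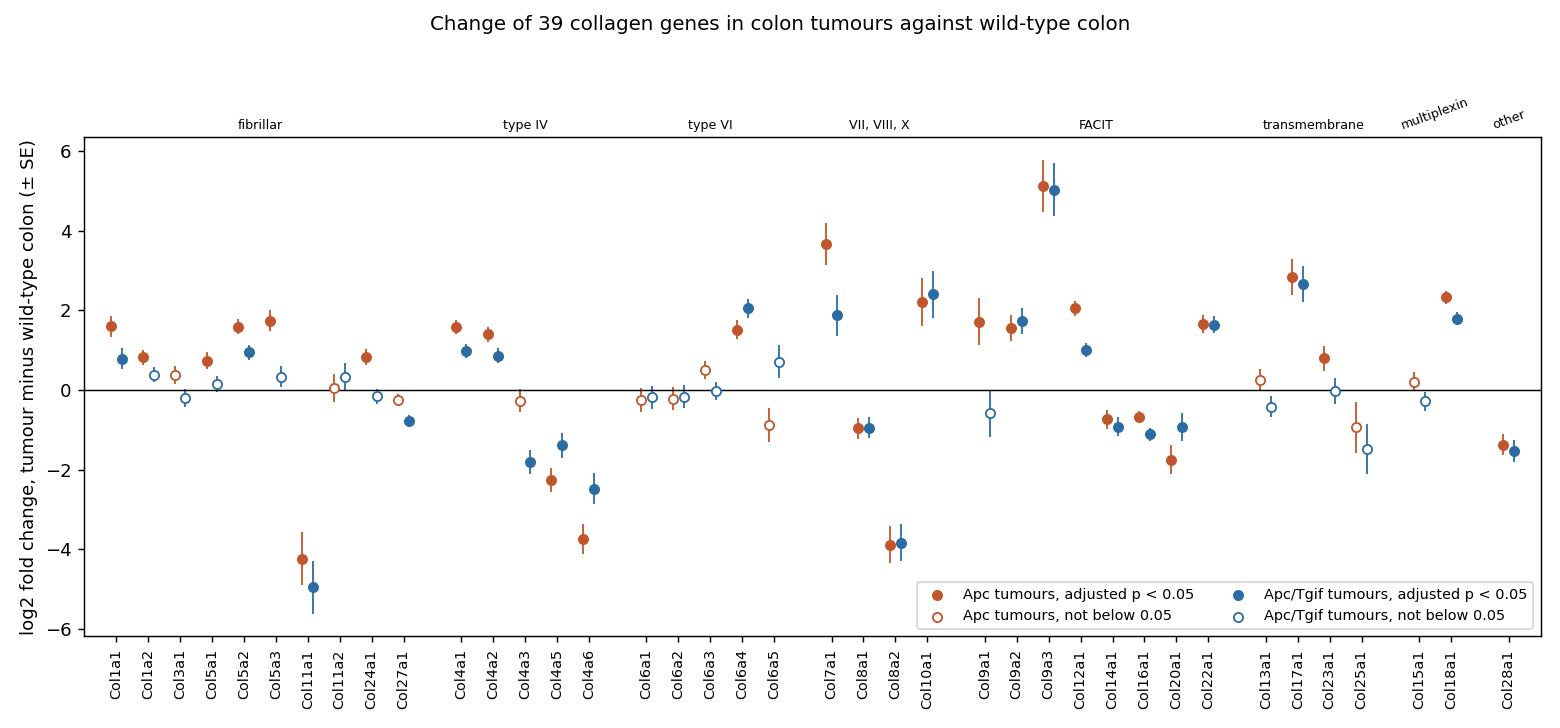
Log2 fold change (± SE) of the 39 tested collagen genes in 7 Apc tumours (orange) and 7 Apc/Tgif tumours (blue) against 5 wild-type colons, ordered by class; filled points have a limma adjusted p below 0.05. Col9a3 had the highest point of both tumour groups and Col11a1, which met the filter mainly through wild-type colon, the lowest, and for Col1a1, Col5a2, Col4a1 and Col4a2, which rose in both groups, the blue point lies below the orange.

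Set directly against Apc tumours, the Apc/Tgif tumours had lower levels of 14 collagen genes and higher levels of 3, with 22 not passing the test. Among all genes tested 8.76% were lower and 7.88% higher, 16.6% together. The median log2 difference of the 39 genes was -0.50, beside -0.01 for all genes. The 14 lower genes encode chains of fibrils (Col1a1, Col5a1, Col5a2, Col5a3, Col24a1, Col27a1), basement membranes (Col4a1, Col4a2, Col4a3), anchoring fibrils (Col7a1), fibril-associated collagens (Col9a1, Col12a1, Col16a1) and the endostatin precursor Col18a1. Without Col9a1, whose difference was partly set by the filter, 13 were lower. The 3 higher genes were Col4a5, Col4a6 and Col6a5. For 3 of the lower genes, Col4a3, Col5a3 and Col24a1, no Apc/Tgif tumour reached the lowest Apc tumour, beside 1.77% of all genes that separated in this direction, 2.30% in the other and 4.07% in either.

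For 11 of the 14 lower genes the Apc/Tgif mean lay nearer to the wild-type mean than the Apc mean did, and the same held for Col4a5 and Col4a6. Those 11, which include the filter-set Col9a1, were all called higher in Apc tumours than in wild type, and Col4a5 and Col4a6 lower. Both comparisons use the same Apc libraries, so these counts were partly set by the selection and are a description. Col4a3, Col16a1, Col27a1 and Col6a5 lay farther from wild type in Apc/Tgif tumours. Among the 22 genes not called between the tumours the Apc/Tgif mean was nearer for 10 (45.5%) and not nearer for 12, which gave 23 nearer and 16 not over the 39 tested genes (59.0%), beside 45.8% of all genes tested. Fibroblast marker genes were also compared between the tumours. Of 10 fibroblast markers, Thy1, Pdpn and Twist2 were lower in Apc/Tgif than in Apc tumours, none was higher and 7 were not called. The summed level of the 10 had a median of 14528 in Apc and 14706 in Apc/Tgif tumours. With the mean log2 level of the 10 markers as a covariate among the 14 tumours, 5 collagen genes were called lower (Col4a3, Col5a3, Col12a1, Col24a1 and the filter-set Col9a1) and 0 higher by limma, with 4 higher at an unadjusted p under 0.05. Over all 18445 genes that fit called 1157 higher and 1142 lower. The same 14 tumours without the covariate gave 1171 and 1262, and the fit of all 19 libraries gave 1453 and 1615. The differences of Col6a5 and Col4a6 were 1.44 (SE 0.60, limma adjusted p = 0.13) and 1.15 (SE 0.51, adjusted p = 0.15) with the covariate, against 1.59 and 1.27 without. For Col4a6 the SE was 0.34 in the fit of all 19 libraries. A call can therefore be lost through a wider SE as well as through a smaller difference. With 10 smooth muscle markers as the covariate, 9 were lower and 2 higher, beside 1345 and 1305 of all genes. When only the 2 tumour groups were fitted, with no covariate, 10 were lower and 2 higher.

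**Figure D2:**
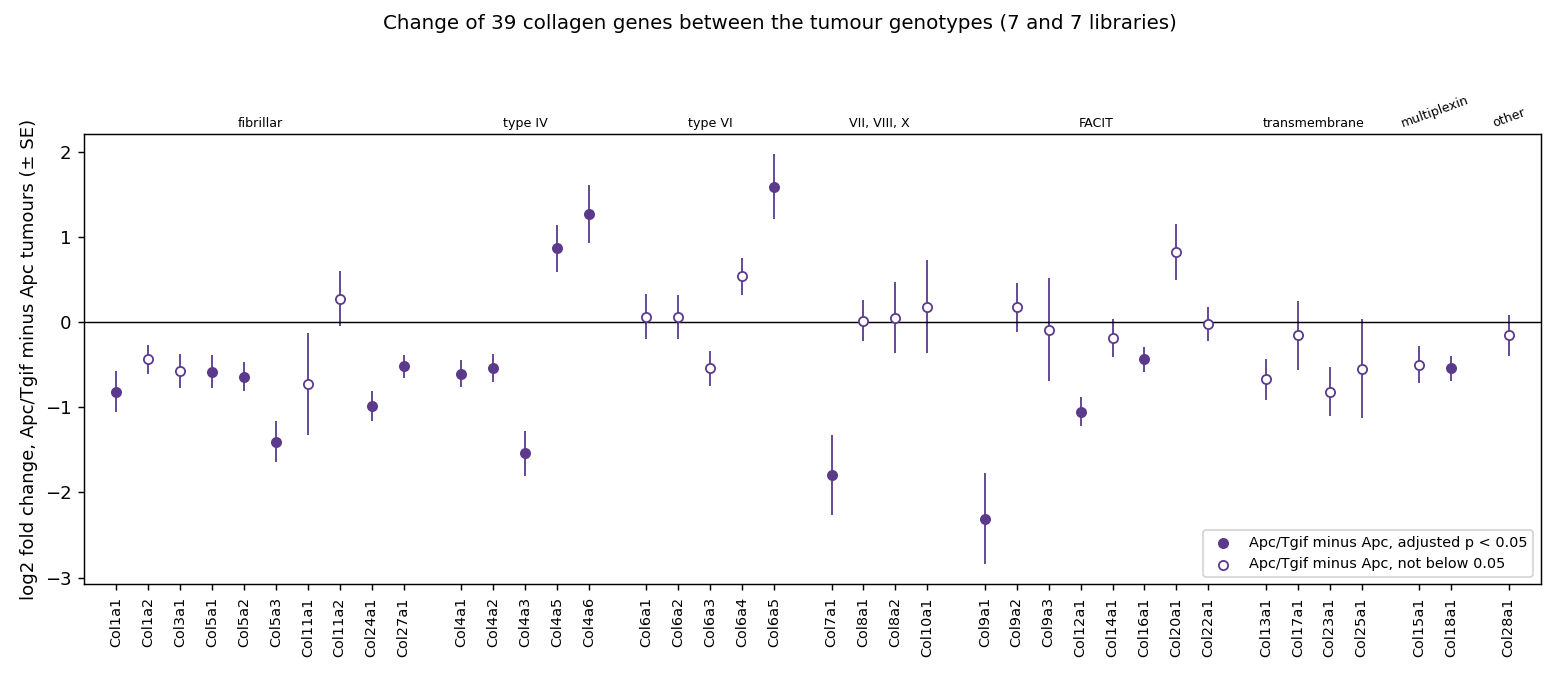
Log2 fold change (± SE) of the 39 tested collagen genes, 7 Apc/Tgif minus 7 Apc tumours; filled points have a limma adjusted p below 0.05. There are 14 filled points below 0, including Col9a1, which met the filter through Apc tumours alone; of the other 13, Col7a1, Col4a3 and Col5a3 lie lowest. There are 3 above 0, Col4a5, Col4a6 and Col6a5.

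The cell mixture of the samples differed, and in bulk samples fewer cells of a type and less RNA per cell cannot be told apart. Beside the marker counts below, 23.9% of all genes rose and 25.2% fell in Apc tumours, and 24.8% and 25.5% in Apc/Tgif tumours. Between the tumours 7.88% of all genes were higher and 8.76% lower. All 10 smooth muscle markers were lower in both tumour groups than in wild-type colon, with a summed level of 206707 to 306998 normalized counts in wild type, 13463 to 23086 in Apc and 10316 to 19207 in Apc/Tgif tumours; 0 of 10 differed between the tumour genotypes. Fibroblast markers summed to 23986 to 36101, 12448 to 23246 and 10542 to 22751, and against wild type 3 rose and 5 fell in Apc tumours and 2 rose and 6 fell in Apc/Tgif tumours. Endothelial markers summed to 5348 to 6673, 7394 to 13153 and 5519 to 16105, with 3 of 10 higher and 1 lower in Apc tumours, 2 higher and 0 lower in Apc/Tgif tumours, and 2 lower in Apc/Tgif than in Apc tumours. Of 6 pericyte markers 2 rose and 2 fell in Apc tumours, 1 rose and 3 fell in Apc/Tgif tumours, and 2 were lower in Apc/Tgif than in Apc tumours, with sums of 7173 to 14628, 6809 to 12692 and 5507 to 10769. Of 10 enteric neuron and glia markers 9 fell and 1 rose in Apc tumours and 10 fell in Apc/Tgif tumours, with sums of 2928 to 5911, 797 to 1730 and 222 to 684. In Apc/Tgif tumours 2 were lower than in Apc tumours, and Sox10 was listed at 0 in 3 libraries, Gfap in 2 and Vip in 1. The 10 epithelial markers, which define the labelled tissue, summed to 539125 to 697931 in wild type, 327748 to 654735 in Apc and 384671 to 504111 in Apc/Tgif tumours, with 2 higher and 5 lower in Apc, 2 higher and 4 lower in Apc/Tgif and 0 called between the tumours. The 6 myeloid markers summed to 7243 to 12134, 6433 to 20349 and 8039 to 15457, with 2 higher and 1 lower, 4 higher and 1 lower, and 2 higher in Apc/Tgif than in Apc tumours. The summed muscle and nerve markers of every wild-type colon exceeded those of every tumour, and their part in the collagen differences against wild type was not tested.

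Of the 10 tested fibrillar genes 6 rose and 1 fell in Apc tumours, 2 rose and 2 fell in Apc/Tgif tumours, and 6 were lower in Apc/Tgif than in Apc tumours. The falls include Col11a1, set in part by the filter. Beside the counts of this and the later classes, 23.9% of all genes rose and 25.2% fell in Apc tumours, and 24.8% and 25.5% in Apc/Tgif tumours. Between the tumours 7.88% of all genes were higher and 8.76% lower. Type I collagen, the main fibril of connective tissue, is built from the chains of Col1a1 and Col1a2. Col1a1 had 8383, 6435, 8964, 8989.6 and 7875 normalized counts in the 5 wild-type libraries, with lowest, median and highest values of 16091, 23431 and 49714 in Apc and 8576, 14733 and 25818 in Apc/Tgif tumours. It rose by 1.60 on the log2 scale in Apc tumours (SE 0.26, limma adjusted p = 5.9e-05) and by 0.78 in Apc/Tgif tumours (SE 0.26, adjusted p = 0.019), and between the tumours it was lower in Apc/Tgif by 0.82 on that scale (change -0.82, SE 0.24, adjusted p = 0.024). Every Apc tumour lay above wild-type colon, 1 Apc/Tgif tumour fell within the wild-type range, and the 2 tumour groups overlapped. The call between the tumours was lost without Apc replicate 1 (-0.76), Apc replicate 7 (-0.75) or Apc/Tgif replicate 7 (-0.67), in either sex alone, with only the 2 tumour groups fitted and with either marker covariate (-0.22, limma adjusted p = 0.66 with the fibroblast markers). The rise in Apc/Tgif tumours was lost in males alone and without wild-type replicate 5 (0.72, limma adjusted p = 0.054). Col1a2 had 12791, 9799, 13780.2, 11936 and 11169.5 in wild type, then 15063, 19801 and 32892 in Apc and 10838, 16247 and 23084 in Apc/Tgif tumours as lowest, median and highest. It rose in Apc tumours (log2 change 0.82, SE 0.19, limma adjusted p = 0.0014), with values of 0.38 in Apc/Tgif tumours and -0.44 between the tumours that did not pass (adjusted p = 0.1 and 0.09). The Apc tumours again lay clear of wild type, and the Apc/Tgif tumours did not.

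Col3a1 encodes the single chain of type III collagen, which is mixed into type I fibrils in distensible tissue. Its wild-type values were 31618, 23122, 37012, 25761 and 26306 normalized counts, and its lowest, median and highest tumour values were 23817, 35442 and 62808 in Apc and 14376, 28819 and 32751 in Apc/Tgif libraries. The 3 groups overlapped, and no comparison passed in the main fit: the log2 changes were 0.37 in Apc and -0.20 in Apc/Tgif tumours against wild type, and -0.57 between the tumours (SE 0.20, limma adjusted p = 0.058). The rise in Apc tumours was called with equal library totals, quantile normalization, array quality weights or the trend on GC content and length removed. The difference between the tumours was called with equal library totals, with that trend removed, and without Apc replicate 2 or Apc/Tgif replicate 3.

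Type V collagen, which sets the diameter of type I fibrils, has chains from Col5a1, Col5a2 and Col5a3. Col5a2 had 2743, 2126, 3318, 2178 and 2249.8 normalized counts in wild type and, as lowest, median and highest, 5294, 7873 and 10264 in Apc and 3016, 4977 and 6588 in Apc/Tgif tumours. It rose in both tumour groups, by 1.60 (SE 0.19, limma adjusted p = 1.3e-06) and 0.95 (SE 0.19, adjusted p = 0.00032) on the log2 scale, and was lower in Apc/Tgif than in Apc tumours (-0.64, SE 0.17, adjusted p = 0.013). All Apc tumours exceeded all wild-type colons for this chain, and the Apc/Tgif tumours overlapped both. Col5a3 had 469.6, 463, 929, 492 and 455 in wild type, 1 library being about double the rest, and 1369.7, 1452 and 3484 in Apc and 431, 739.7 and 1193 in Apc/Tgif tumours. It rose by 1.74 in Apc tumours (SE 0.27, limma adjusted p = 2.8e-05), did not pass in Apc/Tgif tumours (0.34, adjusted p = 0.31), and differed by -1.40 between them (SE 0.24, adjusted p = 0.00063). No Apc/Tgif tumour reached the lowest Apc tumour, and they did overlap with wild-type colon. Col5a1 lay at 2531 to 4404 in wild type, 3612 to 9004 in Apc and 2251 to 4194 in Apc/Tgif tumours. It rose in Apc tumours (0.74, SE 0.21, limma adjusted p = 0.0067) and was lower in Apc/Tgif than in Apc tumours (-0.58, SE 0.19, adjusted p = 0.041), the latter call being lost in 12 of 35 other settings, 6 of which left out 1 tumour (values of -0.58 to -0.45).

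Among the rarer fibrillar chains the directions were mixed. Col24a1, a chain related to those of bone and developing cornea, had 77.0, 39.8, 53.1, 87.7 and 62.9 normalized counts in wild type, 86.8, 119 and 155 as lowest, median and highest in Apc and 40.4, 62.5 and 68.7 in Apc/Tgif tumours. It rose in Apc tumours (0.83, SE 0.20, limma adjusted p = 0.0017) and was lower in Apc/Tgif tumours than in Apc tumours (-0.99, SE 0.18, adjusted p = 0.0008), again with no overlap of the tumour groups. Its Apc/Tgif values lay within the wild-type range. Col27a1, a fibrillar chain best known from cartilage, had 418, 407, 378, 467 and 537 in wild type, 322, 337 and 554 in Apc and 220.3, 252 and 333 in Apc/Tgif tumours. It did not pass in Apc tumours (-0.25, limma adjusted p = 0.17) and was lower in Apc/Tgif tumours than in wild type (-0.78, SE 0.15, adjusted p = 0.00027) and than in Apc tumours (-0.52, SE 0.14, adjusted p = 0.013). Every Apc/Tgif tumour lay below every wild-type colon for this gene.

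Col11a1, a chain of the cartilage fibril collagen XI, had the greatest fitted fall of the 39 tested genes against wild type in both tumour groups, and met the filter mainly through wild-type colon. Its wild-type values were 32.4, 41.2, 52.1, 26.3 and 28.9 normalized counts. It was listed at 0 in 4 of 7 Apc and 5 of 7 Apc/Tgif tumours, with a single Apc library at 27.8 and the rest of both groups at 1.60 or less. On the log2(value + 1) scale, which understates the change of low genes, the fitted changes were -4.24 and -4.97 (SE 0.66 each). Col11a2 passed in no comparison, with values of 31.1 to 52.2 in wild type, 27.1 to 114 in Apc and 29.9 to 122 in Apc/Tgif tumours. The cartilage collagen Col2a1 was listed at 0 in 4 wild-type libraries, reached 0.95 to 15.4 in Apc and 0 to 8.60 in Apc/Tgif tumours, and was not tested.

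**Figure D3:**
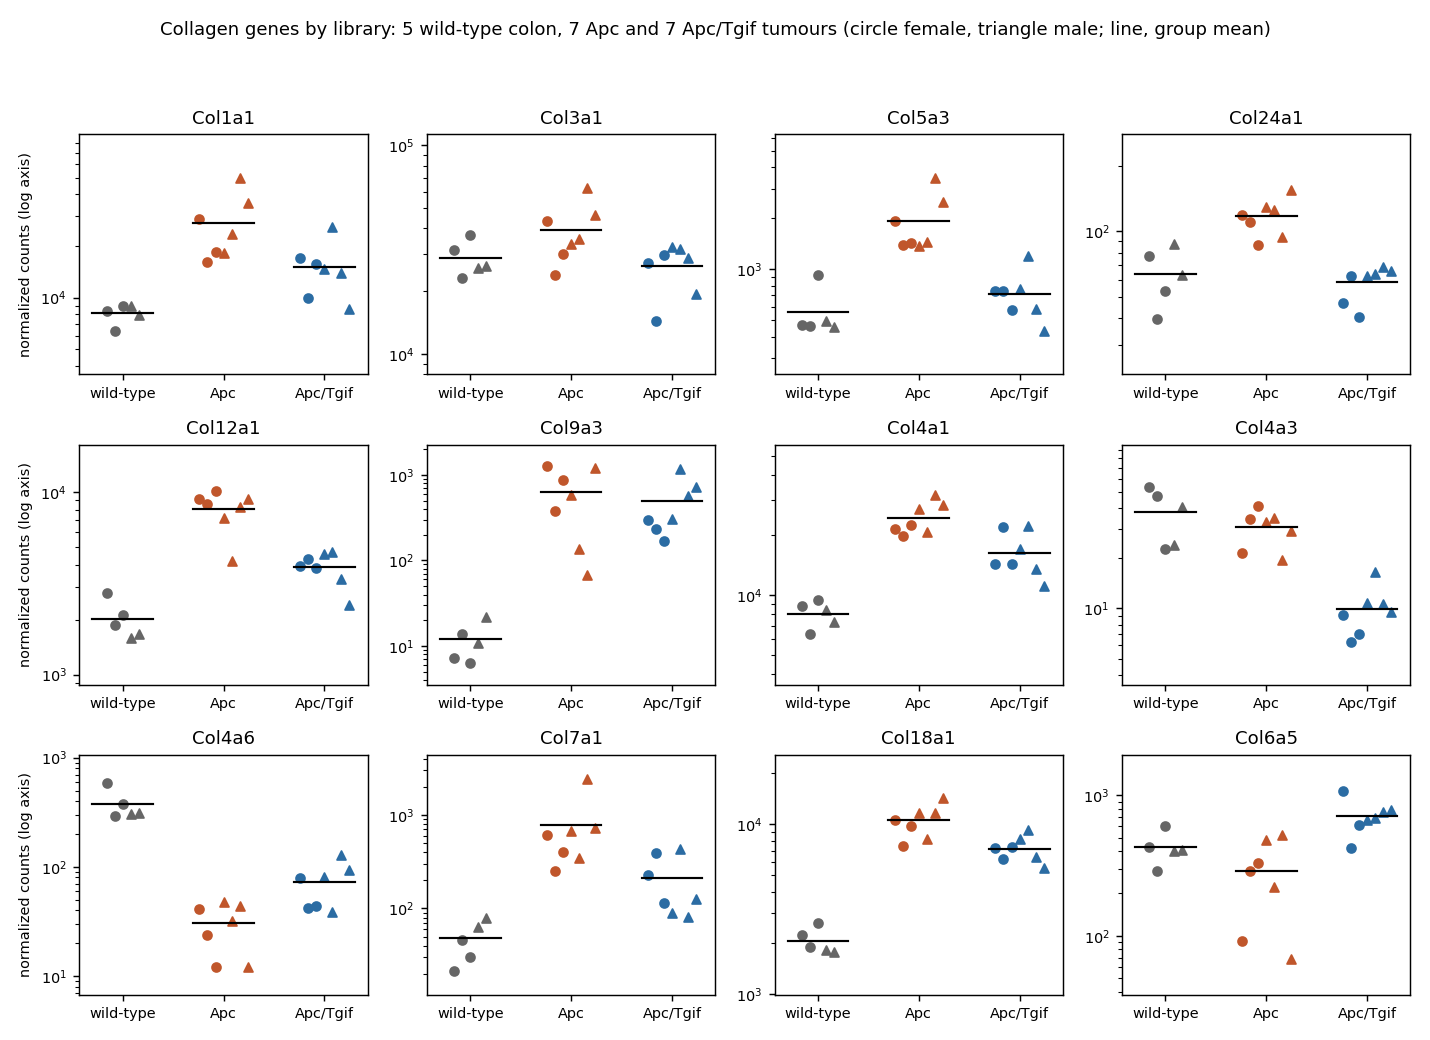
Normalized counts on log axes for 12 collagen genes in each library of wild-type colon (grey), Apc tumours (orange) and Apc/Tgif tumours (blue), with circles for females, triangles for males and a line at the group mean. Col5a3, Col24a1 and Col4a3 show Apc/Tgif tumours wholly below Apc tumours, Col4a6 shows both tumour groups far below wild type, and Col9a3 and Col18a1 show both far above.

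Type IV collagen makes basement membranes, and its 6 genes lie in 3 head-to-head pairs that are transcribed away from each other. Of the 5 tested genes 2 rose and 2 fell in Apc tumours, 2 rose and 3 fell in Apc/Tgif tumours, and 2 were higher and 3 lower in Apc/Tgif than in Apc tumours. The 2 testable pairs moved in opposite directions: Col4a1 and Col4a2, the chains of nearly all basement membranes, rose in tumours, and Col4a5 and Col4a6, a pair known from the basement membrane of smooth muscle and some epithelia, fell. Col4a1 and Col4a2 start 21 bases apart on chromosome 8, and their annotated 5′ ends overlap by 22 bases. The 300-base windows around their RefSeq starts (250 bases before and 50 after, GRCm38.p6) are shown because 1 stretch of 78 bases, in capitals, serves as start region of both genes; each is written 5′ to 3′ on its own gene's strand, chr8:11312777-11313076 on the minus strand for Col4a1 and chr8:11312555-11312854 on the plus strand for Col4a2.
Col4a1: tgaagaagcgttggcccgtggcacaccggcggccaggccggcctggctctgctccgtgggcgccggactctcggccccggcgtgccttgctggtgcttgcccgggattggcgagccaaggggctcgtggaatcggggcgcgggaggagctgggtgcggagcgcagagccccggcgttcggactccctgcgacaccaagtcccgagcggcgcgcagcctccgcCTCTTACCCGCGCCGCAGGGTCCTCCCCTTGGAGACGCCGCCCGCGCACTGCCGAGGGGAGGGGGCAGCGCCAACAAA
Col4a2: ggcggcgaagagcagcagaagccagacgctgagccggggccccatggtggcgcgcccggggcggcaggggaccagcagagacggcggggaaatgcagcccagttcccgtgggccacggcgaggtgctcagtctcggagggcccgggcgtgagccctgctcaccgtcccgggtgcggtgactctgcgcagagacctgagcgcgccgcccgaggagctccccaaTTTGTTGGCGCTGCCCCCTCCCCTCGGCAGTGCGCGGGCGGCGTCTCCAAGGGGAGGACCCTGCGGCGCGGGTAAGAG

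The X-linked pair Col4a5 and Col4a6 starts 1309 bases apart, so its windows are separate: chrX:141475169-141475468 on the plus strand for Col4a5 and chrX:141474027-141474326 on the minus strand for Col4a6. Capitals here mark CCAAT, the box bound by NF-Y, and GGGCGG, the GC box bound by SP1, searched on both strands.
Col4a5: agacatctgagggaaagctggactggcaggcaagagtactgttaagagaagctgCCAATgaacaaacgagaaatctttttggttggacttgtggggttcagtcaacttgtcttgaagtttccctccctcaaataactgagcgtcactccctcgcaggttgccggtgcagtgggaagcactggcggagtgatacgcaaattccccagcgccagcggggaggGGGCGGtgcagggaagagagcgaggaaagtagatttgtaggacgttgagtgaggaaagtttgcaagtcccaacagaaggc
Col4a6: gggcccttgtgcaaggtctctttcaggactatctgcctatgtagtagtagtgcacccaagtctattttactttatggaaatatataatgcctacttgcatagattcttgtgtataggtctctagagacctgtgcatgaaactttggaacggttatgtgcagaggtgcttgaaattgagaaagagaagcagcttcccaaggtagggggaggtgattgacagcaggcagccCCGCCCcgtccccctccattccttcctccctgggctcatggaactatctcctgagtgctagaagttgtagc

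The Col4a5 window held 1 CCAAT and 1 GGGCGG match, and the Col4a6 window 1 GGGCGG match. In the other pair Col4a1 held 1 of each motif, and Col4a2 held 1 CCAAT and 3 GGGCGG matches. Windows were given for 35 of the 44 collagen genes, of which 13 held CCAAT and 22 GGGCGG in at least 1 window, and 15 held TGTCA, the core letters bound by TGIF proteins. Of 32851 RefSeq windows of the same length, 37.4% held CCAAT, 35.7% GGGCGG and 45.4% TGTCA. Matches to letters this short are descriptions and not binding sites.

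Col4a1 had 8746, 6365, 9454, 8349.8 and 7346 normalized counts in wild type and 19749, 22558 and 31712 as lowest, median and highest in Apc and 11138, 14345 and 22162 in Apc/Tgif tumours. It rose by 1.59 (SE 0.17, limma adjusted p = 4.2e-07) in Apc and 0.98 (SE 0.17, adjusted p = 8.7e-05) in Apc/Tgif tumours, and was lower in the latter than in the former (-0.61, SE 0.15, adjusted p = 0.011). Its partner Col4a2 had 6149.6, 4578, 6092, 5547 and 5282 in wild type, 11733, 13114 and 20212 in Apc and 6349.6, 10252 and 14288 in Apc/Tgif tumours. Its log2 changes were 1.40 (SE 0.19, limma adjusted p = 4.8e-06), 0.86 (SE 0.19, adjusted p = 0.0007) and, between the tumours, -0.54 (SE 0.17, adjusted p = 0.033). For both chains every tumour of either genotype lay above every wild-type colon, and the tumour groups overlapped. The tumour difference of Col4a2 was lost in 10 of 35 other settings, 6 of which left out 1 tumour (values of -0.53 to -0.42), with the fibroblast covariate giving -0.01 (limma adjusted p = 0.98), and that of Col4a1 in 2, females alone and the fibroblast covariate.

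Col4a5 had 1092, 744, 854, 703 and 687 normalized counts in wild type against 116, 153 and 279 in Apc and 144, 269 and 613 in Apc/Tgif tumours, lowest, median and highest. It fell by 2.26 on the log2 scale in Apc tumours (SE 0.31, limma adjusted p = 6.6e-06) and by 1.39 in Apc/Tgif tumours (SE 0.31, adjusted p = 0.00088). Col4a6 had 589, 295, 374, 304 and 312 in wild type, 12.1, 32.1 and 47.7 in Apc and 38.8, 78.4 and 129 in Apc/Tgif tumours, and its changes were -3.75 (SE 0.38, limma adjusted p = 1.9e-07) and -2.48 (SE 0.38, adjusted p = 2e-05). No tumour reached the wild-type range of either gene. These falls lie beside that of the 10 smooth muscle markers, whose part in them was not tested. Both genes were higher in Apc/Tgif than in Apc tumours, Col4a6 by 1.27 (SE 0.34, limma adjusted p = 0.015) and Col4a5 by 0.87 (SE 0.28, adjusted p = 0.039), with overlapping tumour groups. The Col4a5 difference was lost in 16 of 35 other settings, 9 of which left out 1 tumour (values of 0.70 to 0.89), and the Col4a6 difference in 3, while no smooth muscle marker differed between the tumours.

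The third pair, Col4a3 and Col4a4, encodes chains of the glomerular and other specialised basement membranes and was scarce here. Col4a3 had 53.8, 47.7, 22.8, 24.2 and 40.9 normalized counts in wild type and 19.5, 33.3 and 41.4 as lowest, median and highest in Apc tumours, and 6.27, 9.47 and 16.6 in Apc/Tgif tumours. It did not pass in Apc tumours (-0.27, limma adjusted p = 0.46), and it was lower in Apc/Tgif tumours than in wild type (-1.81, SE 0.29, adjusted p = 3.4e-05) and than in Apc tumours (-1.54, SE 0.26, adjusted p = 0.00054). The Apc/Tgif tumours lay below every library of both other groups. This difference between the tumours was called in all 34 other settings that tested the gene, and those of Col5a3, Col12a1 and Col24a1 in all 35. Col4a4, which starts 72 bases from Col4a3, was not tested, with 15.1, 18.3, 13.1, 21.6 and 5.70 in wild type and at most 8.66 in Apc and 9.40 in Apc/Tgif tumours.

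The levels of several chain partners were correlated across the tumours of a group. Over the 7 libraries of a tumour group, 7 pairs of partner genes were compared on the log2 scale in each group, 14 relations in all, and 9 had a Benjamini-Hochberg adjusted p below 0.05 by Pearson's r and 8 by Spearman's rho. Col4a1 and Col4a2 gave r = 0.974 in Apc tumours (exact permutation p = 7.9e-04, adjusted 0.0022; rho = 0.893, exact p = 0.012, adjusted 0.022) and r = 0.966 in Apc/Tgif tumours (exact permutation p = 6.0e-04, adjusted 0.0021; rho = 0.964, exact p = 0.0028, adjusted 0.0078). Without the 2 libraries farthest from the median these were 0.949 and 0.918. The 2 genes share 22 bases, and the sources used here do not say whether strand was used in counting. Col4a5 and Col4a6 gave r = 0.698 in Apc tumours, which did not pass (exact permutation p = 0.075, adjusted 0.082; rho = 0.750, exact p = 0.066, adjusted 0.084), and 0.920 in Apc/Tgif tumours (exact permutation p = 0.0075, adjusted 0.012; rho = 0.964, exact p = 0.0028, adjusted 0.0078), with 0.502 and 0.836 after leaving out the 2 farthest libraries.

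The type I partners Col1a1 and Col1a2 gave r = 0.905 in Apc tumours (exact permutation p = 0.0063, adjusted 0.011; rho = 0.821, exact p = 0.034, adjusted 0.053) and 0.980 in Apc/Tgif tumours (exact permutation p = 0.0032, adjusted 0.0074; rho = 0.750, exact p = 0.066, adjusted 0.084). Leaving out the 2 farthest libraries gave 0.709 and 0.915. Col1a1 with Col3a1 gave 0.970 in Apc tumours (exact permutation p = 4.0e-04, adjusted 0.0021; rho = 0.964, exact p = 0.0028, adjusted 0.0078) and 0.770 in Apc/Tgif tumours, the latter not passing (exact permutation p = 0.047, adjusted 0.060; rho = 0.607, exact p = 0.17, adjusted 0.18), with 0.916 and 0.879 without the 2 farthest. For Col3a1 and Col5a2, neighbours on chromosome 1, r was 0.767 and 0.704 (exact permutation p = 0.044 and 0.077, adjusted 0.060 and 0.082), and rho was 0.714 and 0.893 (exact p = 0.088 and 0.012, adjusted 0.10 and 0.022), with r of 0.542 and 0.802 without the 2 farthest. The points of each relation share their library, and 3 females and 4 males per group are too few for a value within a sex.

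**Figure D4:**
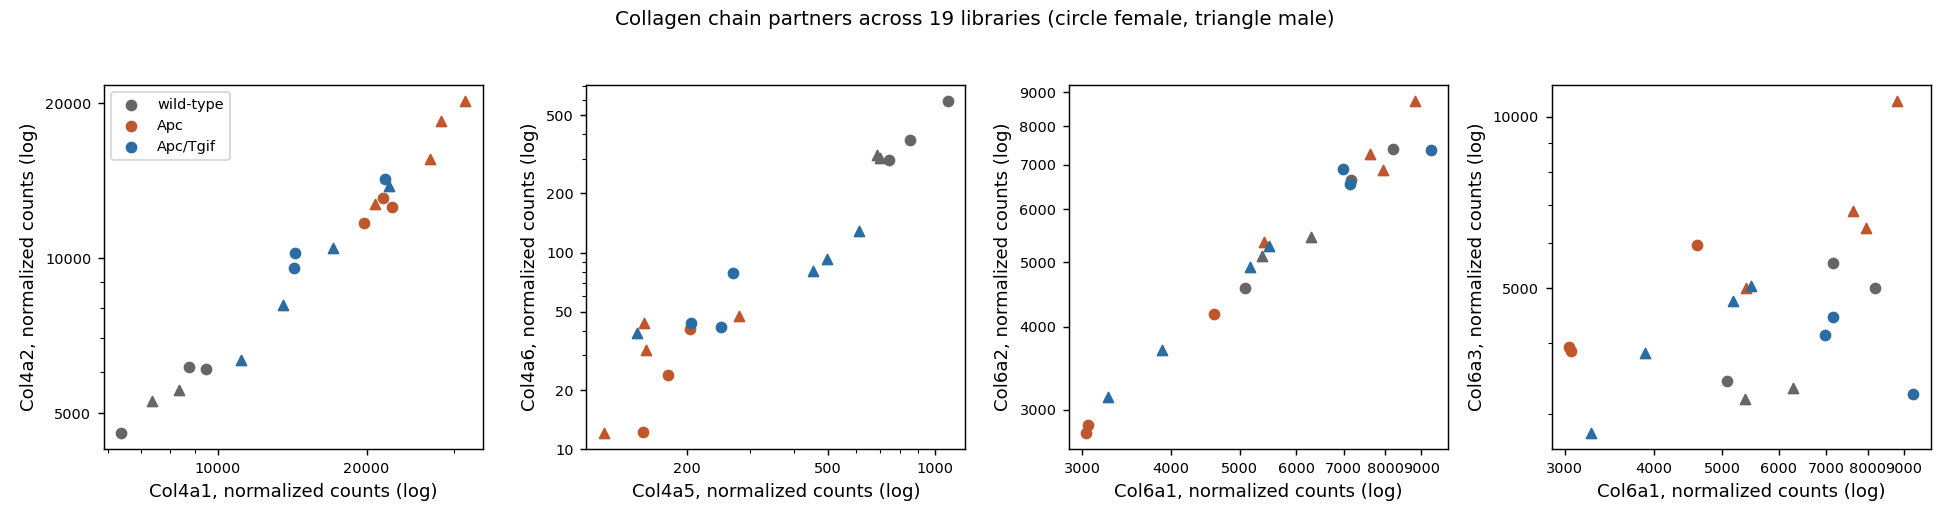
Normalized counts of 4 pairs of partner genes on log axes, 1 point per library, with wild-type colon in grey, Apc tumours in orange and Apc/Tgif tumours in blue (circles female, triangles male). Col4a1 with Col4a2 and Col6a1 with Col6a2 lie close to a line, Col4a5 with Col4a6 spread out at low levels, and Col6a1 with Col6a3 in Apc/Tgif tumours show no line.

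Type VI collagen forms microfilaments between fibrils and cell surfaces from the chains of Col6a1, Col6a2 and an additional, variable chain. Its main genes did not pass in any comparison of the main fit over both sexes. In that setting Col6a1 and Col6a2 differed between the tumour genotypes in opposite directions in females and males. Col6a1 had 8204, 5081, 7159, 5377 and 6292 normalized counts in wild type (the first 3 from females), and 3043, 5399.7 and 8810.4 in Apc and 3268, 5491 and 9273 in Apc/Tgif tumours as lowest, median and highest. Col6a2 had 7392, 4563, 6639, 5112 and 5444 in wild type, 2769.6, 5357 and 8722 in Apc and 3129.8, 5279 and 7362 in Apc/Tgif tumours. In Apc tumours Col6a1 averaged 3567 ± 893 in females (SD, n = 3) and 7446 ± 1453 in males (SD, n = 4). In Apc/Tgif tumours the order was turned, with 7801 ± 1277 in females (SD, n = 3) and 4455 ± 1051 in males (SD, n = 4). Within each tumour genotype the sexes, 3 females and 4 males, did not overlap for either gene. The share of all genes split in this way is not given here, so this is a description.

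Fitted with a mean for each group and sex, the difference between tumour genotypes was smaller in males than in females by 1.89 on the log2 scale for Col6a1 (effect in males minus effect in females -1.89, SE 0.31, limma adjusted p = 9.6e-04) and by 1.85 for Col6a2 (-1.85, SE 0.30, adjusted p = 8.1e-04). In females alone Apc/Tgif tumours had more Col6a1 (log2 change 1.14, SE 0.22, limma adjusted p = 0.0070), and in males alone less (-0.75, SE 0.20, adjusted p = 0.025). Over the 39 collagen genes 4 passed this test, the others being Col22a1 (-0.99, SE 0.33, limma adjusted p = 0.039) and Col9a1 (2.69, SE 0.92), which met the filter through Apc tumours alone. Of all genes tested 23.6% passed, a greater share than of the collagen genes. That share was 14.8% without Apc replicate 2 and 15.8% without Apc replicate 3. For the sex difference of the Apc effect against wild type 0 collagen genes passed with limma, and 0 for the Apc/Tgif effect, beside 0.0108% and 3.40% of all genes. The latter share, 628 genes, varied as single libraries were left out, with only 3 female and 2 male wild-type libraries to begin with. It was 5 genes without wild-type replicate 4, 26 without replicate 3, 29 without replicate 5 and 124 without replicate 1. It was 593 without wild-type replicate 2 and 1801 without Apc/Tgif replicate 5. With the trend on GC content and length removed, a setting added after seeing the data, it was 53 genes. At an unadjusted limma p under 0.05, 3 and 1 of the 39 collagen genes passed for the Apc and Apc/Tgif effects. Beside them stood 2134 and 4322 of all 18445 genes.

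The sexes also differed in other respects within the tumour groups. Summed fibroblast markers lay at 12448 to 13744 in female and 14528 to 23246 in male Apc tumours, and at 14706 to 22751 in female and 10542 to 15047 in male Apc/Tgif tumours, in the same order as Col6a1; their part in the result was not tested. The correlation across 15954 genes between GC content and a library's deviation from its group mean ran from -0.32 to -0.06 in female and -0.09 to 0.34 in male Apc tumours, and from 0.11 to 0.21 in female and -0.29 to 0.13 in male Apc/Tgif tumours. With the trend on GC content and length removed, the sex difference was -1.48 for Col6a1 (SE 0.29, limma adjusted p = 0.0037) and -1.45 for Col6a2 (SE 0.27, adjusted p = 0.0026). Both calls were made in all 29 other settings. The call of Col22a1 was lost in 14 of 29, 11 of which left out 1 library (values of -1.04 to -0.83).

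**Figure D5:**
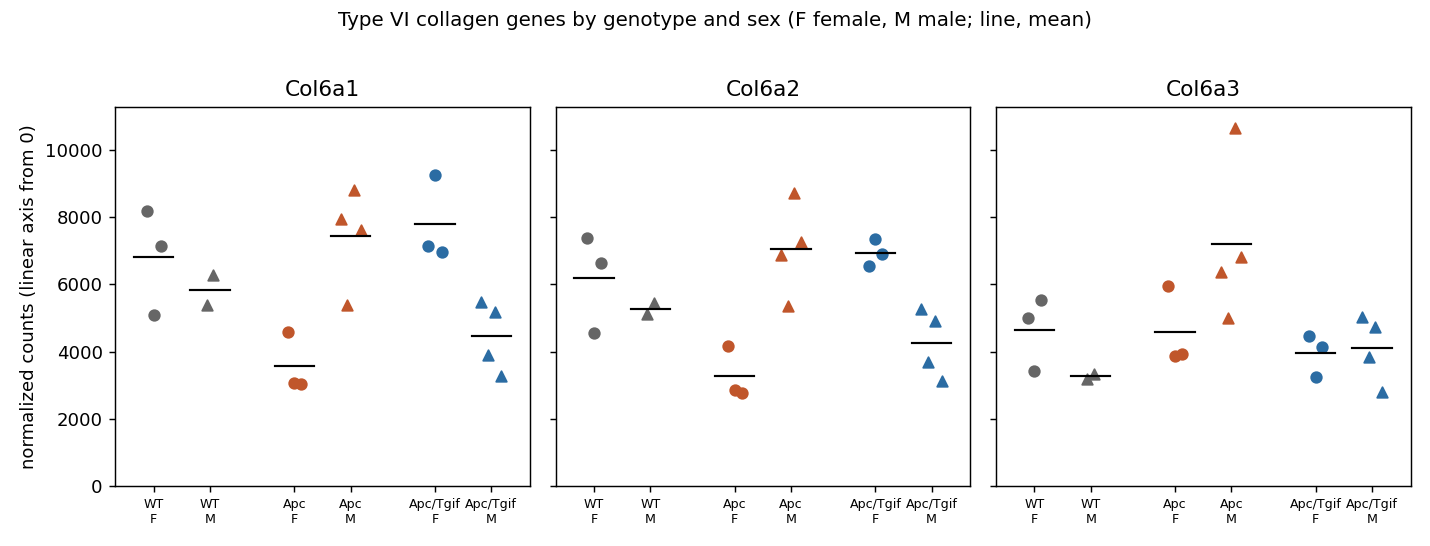
Normalized counts of Col6a1, Col6a2 and Col6a3 by genotype and sex on a linear axis from 0, 1 point per library with a line at the mean. For Col6a1 and Col6a2 the males lie above the females in Apc tumours and below them in Apc/Tgif tumours; for Col6a3 the sexes overlap in Apc/Tgif tumours.

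Col6a1 and Col6a2, which lie in line on chromosome 10, gave r = 0.994 in Apc tumours (exact permutation p = 6.0e-04, adjusted 0.0021; rho = 0.964, exact p = 0.0028, adjusted 0.0078) and 0.984 in Apc/Tgif tumours (exact permutation p = 4.0e-04, adjusted 0.0021; rho = 0.964, exact p = 0.0028, adjusted 0.0078). Without the 2 farthest libraries r was 0.978 and 0.994. The sexes did not overlap for either gene within a tumour genotype, and the permutation did not keep them apart. These values therefore cannot tell that split from a relation within a sex. Col6a1 with Col6a3 gave 0.893 in Apc tumours (exact permutation p = 0.0048, adjusted 0.0095; rho = 0.893, exact p = 0.012, adjusted 0.022) and 0.261 in Apc/Tgif tumours (exact permutation p = 0.56, adjusted 0.56; rho = 0.179, exact p = 0.71, adjusted 0.71), with 0.727 and 0.285 without the 2 farthest; the 2 coefficients were not tested against each other.

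The alternative additional chains of type VI collagen differed from one another. Col6a3 had 4992, 3431, 5538, 3192 and 3340.5 normalized counts in wild type, 3873, 5962 and 10657 in Apc and 2783, 4140.1 and 5042 in Apc/Tgif tumours. It did not pass in the main fit (log2 changes 0.51, -0.03 and -0.54, limma adjusted p = 0.07, 0.92 and 0.079). Its rise in Apc tumours was called in males alone (1.09, limma adjusted p = 0.016), with -0.02 in females alone. That rise was also called without wild-type replicate 1 or 3 or Apc replicate 2 or 3, and under several scalings and weights. The tumour difference was called in males alone, without Apc replicate 2 and with the trend on GC content and length removed. Col6a4 lay at 324 to 504 in wild type, 724 to 1663 in Apc and 841 to 2336 in Apc/Tgif tumours, and rose in both (1.52, SE 0.24, limma adjusted p = 3.5e-05, and 2.05, SE 0.24, adjusted p = 7.5e-07) without overlap with wild type. Col6a5 had 432, 291, 601, 402 and 408 in wild type, 68.5, 290.0 and 524 in Apc and 419, 689 and 1074 in Apc/Tgif tumours. It was higher in Apc/Tgif than in Apc tumours (1.59, SE 0.38, limma adjusted p = 0.0071), and neither tumour group passed against wild type (-0.88 and 0.71, adjusted p = 0.092 and 0.17). Its tumour groups overlapped, and the difference was lost in males alone and with the fibroblast covariate, where it was 1.44 (SE 0.60). Col6a6 stayed at 5.33 or less in every library.

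Type VII collagen, the single product of Col7a1, forms the anchoring fibrils that tie an epithelial basement membrane to the stroma. Col7a1 had 21.4, 45.7, 30.4, 63.2 and 78.6 normalized counts in wild type and 249.7, 609 and 2439.8 as lowest, median and highest in Apc tumours, then 81.3, 128 and 436 in Apc/Tgif tumours. It rose by 3.67 in Apc tumours (SE 0.52, limma adjusted p = 9.9e-06) and by 1.88 in Apc/Tgif tumours (SE 0.52, adjusted p = 0.0052), and was lower in Apc/Tgif than in Apc tumours (-1.79, SE 0.47, adjusted p = 0.012). Every tumour lay above every wild-type colon, and 1 Apc tumour stood far above the rest. The tumour difference was lost in females alone and with the fibroblast covariate (-0.56, limma adjusted p = 0.51), and the rise in Apc/Tgif tumours in males alone.

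Type VIII collagen, a short-chain network collagen of vessels and of the cornea, went the other way. Col8a2 had 222, 185, 140.1, 229.9 and 188 normalized counts in wild type, against 5.77, 12.1 and 26.8 in Apc and 6.61, 10.7 and 57.3 in Apc/Tgif tumours. It fell by 3.89 (SE 0.46, limma adjusted p = 1.3e-06) and fell by 3.84 (SE 0.46, adjusted p = 1.1e-06) with no overlap. Its partner Col8a1 had 583, 397, 566, 464 and 442 in wild type, 140.3, 229.7 and 439 in Apc and 179, 272 and 331 in Apc/Tgif tumours, and fell by 0.96 and 0.94 (SE 0.26 each, limma adjusted p = 0.0054 and 0.0058). Here only the Apc/Tgif tumours lay wholly below wild type. Col10a1, the network collagen of growth plate cartilage, was low, with 3.79, 6.85, 4.35, 2.87 and 1.14 in wild type, 3.23, 26.4 and 41.0 in Apc and 7.61, 20.6 and 102 in Apc/Tgif tumours, with fitted log2 changes of 2.22 and 2.40 (SE 0.60 each). None of these 3 genes passed between the tumours.

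The fibril-associated collagens, which coat fibrils and link them to their surroundings, had 8 tested members, of which 5 rose and 3 fell in Apc tumours and 4 rose and 3 fell in Apc/Tgif tumours. The rises in Apc tumours include Col9a1, set in part by the filter. Col12a1, a long chain of dense and strained connective tissue, had 2797, 1858, 2108, 1586 and 1676 normalized counts in wild type, 4181, 8643 and 10100.4 in Apc and 2395, 3946 and 4676 in Apc/Tgif tumours. It rose by 2.05 (SE 0.19, limma adjusted p = 5e-08) and 1.00 (SE 0.19, adjusted p = 0.00017) and was lower in Apc/Tgif than in Apc tumours (-1.05, SE 0.17, adjusted p = 0.00031). A single Apc tumour, at the bottom of its group, overlapped with the Apc/Tgif tumours, and the difference was -0.83 with the fibroblast covariate (SE 0.24, limma adjusted p = 0.040).

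Col9a3 and Col9a2 encode chains of type IX collagen, which coats cartilage fibrils. Col9a3 had 7.21, 13.7, 6.38, 10.9 and 21.7 normalized counts in wild type and 66.8, 586 and 1255 in Apc and 167, 307 and 1166 in Apc/Tgif tumours, with rises of 5.13 (SE 0.66, limma adjusted p = 3.9e-06) and 5.04 (SE 0.66, adjusted p = 3.6e-06), the greatest of the 39 genes in both comparisons. Col9a2 lay at 77.4 to 138 in wild type, 149 to 677 in Apc and 149.5 to 404 in Apc/Tgif tumours and rose in both (1.56 and 1.74, limma adjusted p = 0.00049 and 0.00015). Neither overlapped with wild type, and neither passed between the tumours. Col9a1, which encodes their partner chain, was scarce, with 7.57, 3.43, 0.87, 5.75 and 2.28 in wild type, 3.16, 16.1 and 33.0 in Apc and 0, 2.09 and 5.67 in Apc/Tgif tumours. The groups overlapped, and since Col9a1 met the filter through Apc tumours alone, its fitted log2 changes of 1.72 in Apc tumours (SE 0.59) and -2.31 between the tumours (SE 0.53) are a description.

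Col16a1, a fibril-associated chain of fibroblasts and smooth muscle cells, had 1437, 1534, 1433, 1983 and 1762 normalized counts in wild type, 696, 1154 and 1367 in Apc and 626, 739.9 and 1159 in Apc/Tgif tumours. It fell by 0.68 (SE 0.16, limma adjusted p = 0.0016) and 1.12 (SE 0.16, adjusted p = 8.4e-06), with every tumour below wild type. Between the tumours it was lower in Apc/Tgif (-0.44, SE 0.14, limma adjusted p = 0.042), a call lost in 21 of 35 other settings, 12 of which left out 1 library (values of -0.46 to -0.37). Col14a1 had 1522, 584, 1080.2, 719 and 764 in wild type, 303, 548 and 683 in Apc and 285, 460.4 and 647 in Apc/Tgif tumours, and fell by 0.74 and 0.92 (SE 0.24 each, limma adjusted p = 0.017 and 0.0038) with overlapping groups; the first call was lost in 5 other settings, namely equal library totals, either sex alone, the trend on GC content and length removed, and without wild-type replicate 1 (-0.58), with adjusted p up to 0.19. Col20a1 lay at 88.4 to 126 in wild type, 16.9 to 78.5 in Apc and 31.5 to 98.4 in Apc/Tgif tumours and fell in both (-1.75 and -0.93, limma adjusted p = 0.00048 and 0.037), the second call being lost in 13 of 33 other settings, 8 of which left out 1 library (values of -0.99 to -0.77). Col22a1, known from muscle-tendon junctions, lay at 22.8 to 30.2 in wild type, 68.3 to 114 in Apc and 59.4 to 135 in Apc/Tgif tumours and rose in both (1.66 and 1.65, limma adjusted p = 5e-06 and 4.4e-06) with no overlap. Col19a1 reached 10 in 1 wild-type and 2 Apc/Tgif libraries and was not tested.

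Transmembrane collagens are anchored in the cell that makes them. Col17a1, the hemidesmosome collagen of basal epithelial cells, had 8.77, 17.4, 22.9, 14.6 and 16.2 normalized counts in wild type, 30.3, 130.1 and 381 in Apc and 61.9, 119 and 210.1 in Apc/Tgif tumours. It rose by 2.83 (SE 0.45, limma adjusted p = 4e-05) and 2.67 (SE 0.45, adjusted p = 6.1e-05), without overlap, and the tumours did not differ beyond the threshold (-0.16, adjusted p = 0.85). Col23a1 had 342, 263, 260.1, 425 and 213 in wild type, 338, 558 and 711 in Apc and 121, 283 and 627 in Apc/Tgif tumours, and passed only in Apc tumours (0.80, SE 0.32, limma adjusted p = 0.046), a call lost in 18 of 33 other settings, 13 of which left out 1 library (values of 0.68 to 0.84). Col13a1 had 102, 127, 74.4, 98.2 and 123 in wild type, 83.2, 131 and 152 in Apc and 42.2, 72.6 and 153 in Apc/Tgif tumours and passed in none (between the tumours -0.67, limma adjusted p = 0.057). Col25a1, a neuronal collagen, also passed in none, with values of 9.33 to 46.8, 3.02 to 32.2 and 0 to 21.9.

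Multiplexins are proteoglycan collagens of basement membrane zones. Col18a1, whose end fragment is endostatin, had 2217, 1877, 2616, 1814 and 1772 normalized counts in wild type, 7495, 10635 and 14271 in Apc and 5486, 7237 and 9301 in Apc/Tgif tumours. It rose by 2.33 (SE 0.16, limma adjusted p = 1.6e-09) and 1.79 (SE 0.16, adjusted p = 2.9e-08) and was lower in Apc/Tgif than in Apc tumours (-0.54, SE 0.15, adjusted p = 0.015). The wild-type colons lay below all tumours, and the tumour groups overlapped. Its relative Col15a1 had 1876, 1332, 1859, 1324 and 1300.2 in wild type, 1355, 1639 and 3612 in Apc and 835, 1119 and 2066 in Apc/Tgif tumours and passed in none (limma adjusted p = 0.49, 0.34 and 0.14). Col28a1, a collagen found in mice around glial cells of peripheral nerve, had 188, 141, 288, 159 and 159 in wild type, 43.9, 65.7 and 107 in Apc and 43.0, 56.0 and 99.5 in Apc/Tgif tumours. It fell by 1.38 and 1.53 (SE 0.27 each, limma adjusted p = 0.00033 and 9.3e-05) without overlap, beside the fall of enteric glia markers given above, whose part in it was not tested. Col26a1 stayed below 10 in every library.

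Compared per kilobase of transcript, so that long and short genes can be set side by side, Col3a1 had the highest mean level in each group, with 5170 ± 997 normalized counts per kilobase in wild type (SD, n = 5), 7085 ± 2307 in Apc (SD, n = 7) and 4727 ± 1228 in Apc/Tgif tumours (SD, n = 7). Wild-type colon then had Col1a2 at 2224 ± 285, Col6a1 at 1566 ± 314 and Col1a1 at 1371 ± 178, the last 2 within an SD of each other. In Apc tumours Col1a1 came second at 4580 ± 2034, followed by Col1a2 at 4095 ± 1179 and Col4a1 at 3707 ± 678, 3 levels that lay within their spread. In Apc/Tgif tumours Col1a2 at 2991 ± 719, Col1a1 at 2548 ± 948 and Col4a1 at 2470 ± 641 were as close. Col18a1 was outside the first 10 genes in wild type and stood sixth in Apc tumours at 1883 ± 411 and seventh in Apc/Tgif tumours at 1282 ± 231.

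The enzymes that fold, trim and crosslink collagen were followed as well. Beside the counts of these lists, 23.9% of all genes rose and 25.2% fell in Apc tumours, and 24.8% and 25.5% in Apc/Tgif tumours. Between the tumours 7.88% of all genes were higher and 8.76% lower. Of 19 genes of folding, modification and export, 8 rose and 4 fell in Apc tumours, 4 rose and 6 fell in Apc/Tgif tumours, and 0 were higher and 5 lower in Apc/Tgif than in Apc tumours (P3h1, P3h4, Crtap, P4ha1 and Plod2). P4ha1, a catalytic subunit of prolyl 4-hydroxylase, had 1295, 1767 and 1956 normalized counts in wild type as lowest, median and highest, 994, 1278 and 2465 in Apc and 507, 737 and 1147 in Apc/Tgif tumours (between the tumours -0.87, SE 0.22, limma adjusted p = 0.0097). Plod2, the lysyl hydroxylase of telopeptides, ranged over 490.3 to 923 in wild type, 398 to 825 in Apc and 275 to 501 in Apc/Tgif tumours (-0.89, SE 0.19, adjusted p = 0.0028). P3h1, P3h4 and Crtap, whose proteins act in prolyl 3-hydroxylation and in lysine modification of procollagen in the endoplasmic reticulum, differed by -0.81, -0.67 and -0.55 (limma adjusted p = 0.0015, 0.0014 and 0.0052). Serpinh1, the collagen chaperone HSP47, passed in no comparison (0.07, -0.50 and -0.58).

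Of 12 tested genes of procollagen cleavage and crosslinking, 6 rose and 0 fell in Apc tumours, 4 rose and 2 fell in Apc/Tgif tumours, and 0 were higher and 3 lower in Apc/Tgif than in Apc tumours. Lox, the lysyl oxidase that starts crosslinks, lay at 145 to 592 in wild type, 1054 to 3704 in Apc and 759.8 to 5897 in Apc/Tgif tumours and rose in both (3.33 and 2.86, limma adjusted p = 8.2e-07 and 3.7e-06). Loxl2, an oxidase of type IV collagen, lay at 1686 to 2891, 5880.1 to 10139 and 1847 to 5510.3 in the same groups, rose in both, and differed by -0.95 between them (SE 0.19, limma adjusted p = 0.0022). Bmp1, the C-proteinase of procollagen I, also rose in both and was lower in Apc/Tgif tumours (-0.63, SE 0.15, limma adjusted p = 0.008), as was the enhancer gene Pcolce2 (-3.40, SE 0.60, adjusted p = 0.00071).

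Of 9 tested collagen receptors, 4 rose and 2 fell in Apc tumours, 3 rose and 3 fell in Apc/Tgif tumours, and 0 were higher and 1 lower in Apc/Tgif than in Apc tumours. Beside the counts of this paragraph, 49.1% and 50.3% of all genes were called against wild type in the 2 tumour groups. Between the tumours 7.88% of all genes were higher and 8.76% lower. The epithelial receptor kinase Ddr1 rose (0.84 and 1.12, limma adjusted p = 2.1e-05 and 5.5e-07) and the mesenchymal one, Ddr2, fell (-1.40 and -1.88, adjusted p = 1.9e-06 and 3.3e-08) and was lower in Apc/Tgif than in Apc tumours (-0.48, SE 0.16, adjusted p = 0.041). Of 8 collagen-binding proteoglycan and matricellular genes, 1 rose and 5 fell in Apc tumours and 0 rose and 5 fell in Apc/Tgif tumours; between the tumours Ogn was higher (1.03, limma adjusted p = 0.014) and Dcn and Sparc lower in Apc/Tgif (-0.65 and -0.62, adjusted p = 0.024 and 0.016). All 5 collagenase and gelatinase genes rose in Apc tumours and 4 in Apc/Tgif tumours, where 2 were lower than in Apc tumours. Mmp13, the rodent collagenase of fibrillar collagen, had 81.1, 122 and 150.5 normalized counts in wild type, 4581, 12328 and 37446 in Apc and 361, 1409 and 3323 in Apc/Tgif tumours (-3.42 between the tumours, SE 0.45, limma adjusted p = 5.5e-05), with no overlap of the 3 groups. Mmp8, the neutrophil collagenase, was the other (-1.47, SE 0.47, adjusted p = 0.039).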

How the data were processed

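Per the labels' protocols, polyA RNA of whole tissue was read from a single end for 75 bases. The submitters' processing notes name Salmon, DESeq2, GRCm38 and mm10 without versions; the sources used here state neither annotation nor strandedness. The authors deposited 1 table of normalized counts per gene and library, a signal divided by library factors and not by gene length, with library totals of 34417808 to 44732717. Of low values 84.0% to 87.2% lay within 0.1 of a whole multiple of the step of their library, too few to recover reads, and count models were left out.

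Values were tested as log2(normalized count + 1) with limma 3.58.1 in R 4.3.3 (empirical Bayes with trend and robust moderation, group and sex as terms, all 19 libraries), with Benjamini-Hochberg adjustment over the 18445 genes at 10 or more in at least 5 libraries. Sex differences used 1 mean per group and sex. Partner genes were correlated with exact permutation tests (scipy 1.17.1, Python 3.11.15), two-sided. Levels per kilobase and gene positions used GENCODE M21 (GRCm38); promoter windows came from RefSeq. The fits were tested on simulated data.

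The members and gene lists were chosen with earlier results of these data known. Per-library values are given for the 3 highest members of each class, the 12 members with the smallest p between tumours and the 3 greatest rises and falls; Col5a1, Col6a4, Col9a2, Col11a2, Col20a1, Col22a1, Col25a1 and the untested genes are added in ranges. Alternatives covered the pseudocount (0.5 or 10), filter, scaling, moderation, weights, sexes, covariates and each library left out.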

Additional observations from a re-analysis of the deposited data

Results flagged for a closer look

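In 12 of 117 sets of 1 collagen gene and 1 group, a single library stood apart from the rest of its group by Dixon's test. For normally distributed values chance flags about 1 in 20 groups. The test used normalized counts without a log, each flagged library lay above the rest of its group, and the genes share their libraries. The number of flags therefore cannot be set against that rate. Apc tumour replicate 6 held 4 of the flags. It had 2439.76 normalized counts of Col7a1 (others 249.65 to 730.58), 380.53 of Col17a1 (others 30.3 to 163.6), 3612.43 of Col15a1 (others 1354.89 to 2049.88) and 27.76 of Col11a1 (others 0 to 1.60). Apc/Tgif tumour replicate 5 held 3, with 102.18 of Col10a1 (others 7.61 to 25.5), 1159.38 of Col16a1 (others 626.32 to 785.38) and 57.34 of Col8a2 (others 6.61 to 16.3). Apc tumour replicate 5 had 676.73 of Col9a2 (others 148.71 to 349.34), and Apc tumour replicate 7 had 114.29 of Col11a2 (others 27.1 to 51.1). Among the wild-type colons, replicate 1 had 589.06 of Col4a6 (others 295.02 to 373.94), replicate 3 had 928.52 of Col5a3 (others 455.44 to 491.7) and replicate 4 had 137.95 of Col9a2 (others 77.4 to 84.5).

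The difference between the tumour genotypes differed between the sexes in 4 of 39 collagen genes by limma's interaction test, beside 23.6% of the 18445 genes tested. The effect in males minus that in females was -1.89 on the log2 scale for Col6a1, -1.85 for Col6a2, -0.99 for Col22a1 and 2.69 for Col9a1, which met the filter through Apc tumours alone.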

How the results depend on the processing

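No collagen gene called in a comparison changed sign under another setting. The values followed through the settings were those of the called results and of some uncalled results of Col1a2, Col3a1 and Col6a3. Among them 2375 stayed on their side of the threshold, 168 lost a call and 13 gained one. The 13 all came from the uncalled results of Col1a2, Col3a1 and Col6a3. Among values of the other results not called, 1326 stayed, 54 gained a call and 103 changed sign. The cause was not tested. In males alone, with 6 or 8 libraries per comparison, 5 genes were called lower in Apc and 7 in Apc/Tgif tumours against wild type, and 0 higher between the tumours by limma (3 at an unadjusted p under 0.05). Of all 18445 genes, 3039, 3916 and 1544 were called in the same fit and directions. In females alone 7 were lower between the tumours, beside 2218 of all genes. The smooth muscle covariate gave 9 lower, and the fibroblast covariate 5 lower and 0 higher. Over all genes the first gave 1345 lower, and the second 1142 lower and 1157 higher. With array quality weights the counts differing by sex were 3 for Apc tumours against wild type, 1 for Apc/Tgif against wild type and 10 between the tumours, beside 6.96%, 19.8% and 42.4% of all genes, and without the filter the last was 2, beside 15.9%. Leaving out 1 library gave 2 to 7 genes differing by sex between the tumours (7 without Apc/Tgif replicate 5; 2 without Apc replicate 1 or 2 or Apc/Tgif replicate 2, 3, 6 or 7), 0 to 1 for Apc/Tgif tumours against wild type (1 without Apc/Tgif replicate 5), 2 to 4 higher and 10 to 17 lower between the tumours, and 9 to 10 correlations of partner genes. In these fits 14.8% to 26.6% and 0.0271% to 9.76% of all genes passed the 2 sex tests. Between the tumours 13.7% to 18.7% were called in either direction. Equal library totals moved the median of all genes from -0.01 to 0.19 in Apc and from 0.00 to 0.15 in Apc/Tgif tumours against wild type, with 6160 higher and 3417 lower, and 5810 and 3843, among all genes (4415 and 4639, and 4576 and 4708, as deposited), and 1080 higher and 1849 lower between the tumours (1453 and 1615 as deposited). With the trend on GC content and length removed, chosen after seeing the data, these were 4981 and 4187, 5726 and 3940, and 2284 and 1523 of 15954 genes, with medians of 0.06, 0.13 and 0.05. Collagen calls under it were 21 higher and 8 lower, 14 and 10, and 2 and 17. No paired analysis was possible because the library names carry no replicate numbers shared between groups. Genes near 10 counts are limited by depth, and p-values measure the spread between single mice.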
